A study of Mus musculus with 24 samples.

Results

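Cyclins D and E, 2 inhibitors of their kinases, E2F factors and the E2F partner DP1 were examined here for acetylation of histone H3 at lysine 9 (H3K9ac), which is typical of the promoters of active genes. The set holds 10 genes of G1 to S phase control (Ccnd1, Ccnd2, Ccnd3, Ccne1, Ccne2, Cdkn1b, Cdkn2c, E2f1, E2f3 and Tfdp1) out of 21887 protein-coding genes in the RefSeq table of assembly GRCm38.p6. All 10 were matched by symbol. The genes were chosen by their place in this pathway and by the presence, position and covered length of H3K9ac peaks near their ends in these libraries, Ccnd2 and Tfdp1 having been noted for weaker marking without Gcn5. Differences between genotypes at the 10 genes are therefore given as a description, with no test.

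ChIP-seq of the mark was done on embryoid bodies at day 5, aggregates in which mouse embryonic stem cells differentiate. All cells were of strain C57BL/6. The fx/fx group carried the floxed Gcn5 allele on both chromosomes and held isolates 4_1 and 6_1, and the null group (Gcn5-/-) held isolates 4_C2 and 6_C4, with 2 libraries of each isolate. Isolates 4_1 and 4_C2 form isolate pair 4, and 6_1 and 6_C4 form pair 6, so that each genotype rests on 2 isolates. How Gcn5 was deleted, and whether fx/fx cells were given the same deletion treatment, is not stated in the sources used here. Kat2a encodes Gcn5, an enzyme that acetylates histones, H3 lysine 9 among its sites.

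D-type cyclins are induced by growth signals and activate the kinases CDK4 and CDK6, which phosphorylate the retinoblastoma protein. This releases E2F factors, which bind DNA as dimers with a DP protein and switch on genes of S phase entry, the E-type cyclins among them. Cyclin E with CDK2 phosphorylates the retinoblastoma protein further, while p18 (Cdkn2c) inhibits CDK4 and CDK6 and p27 (Cdkn1b) mainly restrains cyclin E with CDK2. Mouse embryonic stem cells have a short G1 phase with little D-type cyclin activity, and the G1 phase lengthens as they differentiate.

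The 8 deposited peak lists held 12041 to 20809 peaks covering 21.8 to 44.3 Mb, and they give positions only, so that the length covered by called peaks was the measurement and signal strength was not. Sequencing depth, which affects how many peaks are called and how wide, is unknown. The 4 lists of pair 6 were longer than the 4 of pair 4, and replicate 2 of isolate 4_C2 was the shortest. In a mixed population, fewer cells with the mark and less mark per cell cannot be told apart. Kat2a had a peak at its ends in all 8 libraries, and Myc in 4 fx/fx and 3 null libraries. A peak at Kat2a does not show whether the deletion took place, so the labels could not be checked in this way. Of 4 pluripotency markers (Pou5f1, Nanog, Sox2 and Zfp42), 3 to 4 were marked in fx/fx libraries against 2 to 4 in the null group, with summed covered lengths of 9732 to 26703 and 6498 to 22744 bp. Of 3 epiblast markers 2 to 3 had a peak in each library of either genotype. In replicate 2 of 4_C2 none of 3 primitive streak markers, 3 endoderm markers and Sox1 and Pax6 had a peak. Each other null library had a peak at 1 or more markers of each of these groups. The 3 endoderm markers had no peak in 1 fx/fx library either, and Pax6 had one in 1 library of 8. Of 4 fibroblast markers 0 to 2 were marked in fx/fx libraries and 0 to 1 in the null group, and Postn in no library. The part of cell composition in the results below was not tested.

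A gene was scored by whole peaks that came within 1000 bp of either annotated end, the left end being the one with the lower coordinate. Of the 10 genes, 8 had such a peak in all 8 libraries, against 45.3% of all protein-coding genes, and Ccnd2 and Ccnd3 did not. RefSeq start sites with strand and promoter sequence were matched for 7 of the 10 genes, with 11 start sites, and Ccnd1, Ccnd2 and Ccne2 had no entry. Promoters below are the RefSeq GRCm38.p6 sequences from 250 bases before to 50 bases after a start, on the gene's strand, and the peak lists use the same primary sequence (mm10).

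**Figure D1:**
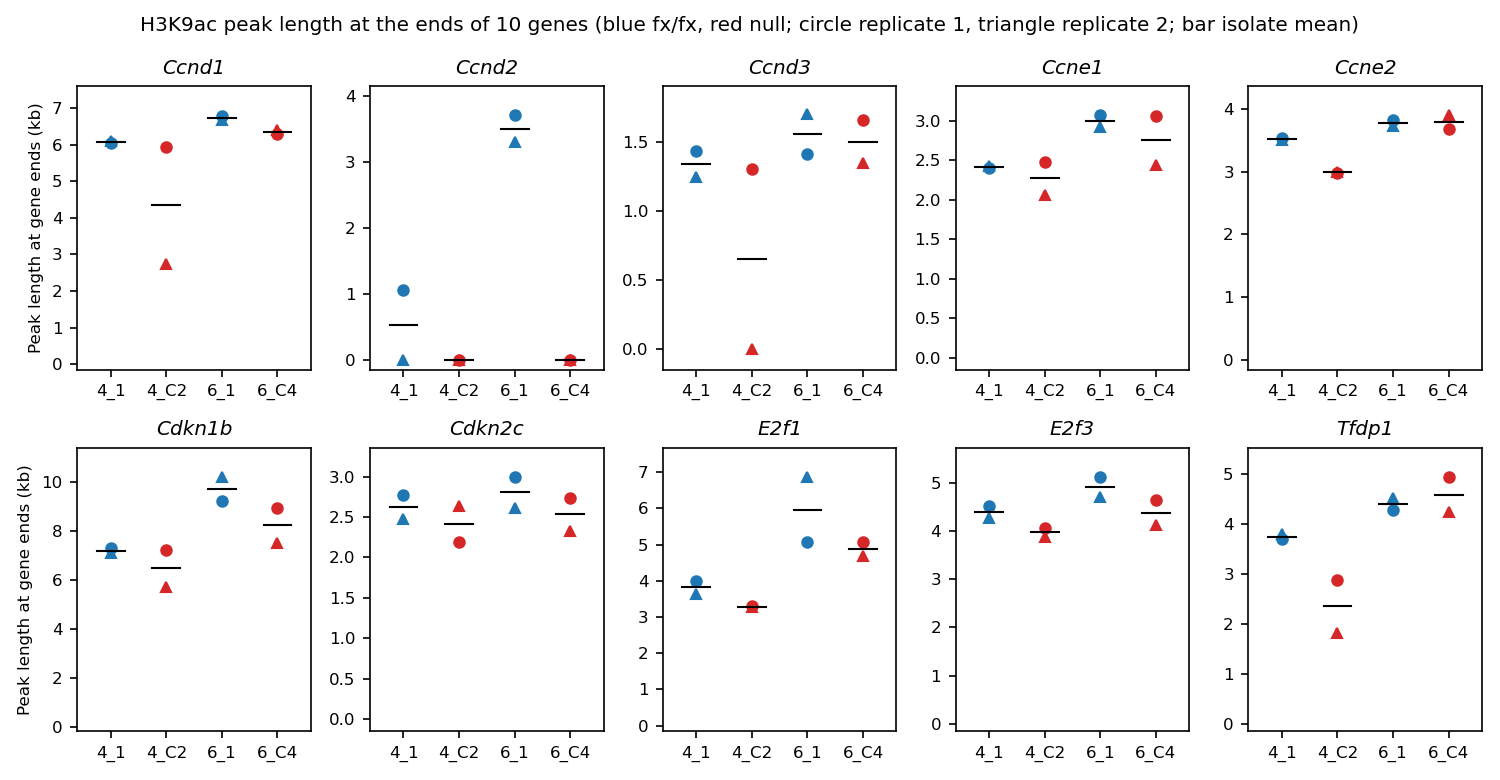
Covered length of H3K9ac peaks at the gene ends (kb, vertical axis, from 0) by isolate (horizontal axis), with each library as a point and the isolate mean as a bar. At Ccnd2 the 4 null libraries and replicate 2 of 4_1 are at 0 and the 2 libraries of 6_1 at 3705 and 3296 bp, and at all 10 genes the genotypes overlap or touch.

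Ccnd1 encodes cyclin D1 (chromosome 7, 144929931 to 144939831). Its peak lay across the right end and covered 6059 and 6103 bp in the libraries of 4_1, 6794 and 6684 bp in 6_1, 5932 and 2749 bp in 4_C2, and 6303 and 6406 bp in 6_C4. Means were 6410 ± 383 bp for fx/fx against 5348 ± 1744 bp for null (SD, n = 4 per group). The low value belonged to replicate 2 of 4_C2, where the domain was broken into pieces of 2749 and 737 bp, the latter outside the window. Without that library the difference went from -1062.5 to -196.3 bp. The merged region ran from 144937546 to 144944386, so that the domain reached beyond the gene's right end as well as into it. No library had a peak within 1000 bp of the left end, which lies inside the neighbouring gene listed as LTO1.

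Ccnd2 encodes cyclin D2 (chromosome 6, 127125162 to 127152188), and its right end overlaps the long non-coding RNA gene 9330179D12Rik, so a peak there cannot be assigned to one of the genes. At the ends, covered length was 1051 and 0 bp in 4_1, 3705 and 3296 bp in 6_1, and 0 bp in all 4 null libraries. Ccnd2 was thus marked at an end in 3 fx/fx libraries of 4 and in no null library. In pair 6 it was among 154 genes with a peak in each fx/fx library and no null library of the pair, which is 1.13% of the 13622 genes with an end peak in any library. In pair 4 it was not among the 250 such genes (1.84%). The reverse pattern was seen at 51 genes in pair 4 (0.374%) and 39 in pair 6 (0.286%), none of them in the set.

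With windows of 500 bp the count was also 3 fx/fx and 0 null libraries, since a separate peak across the right end marked those 3. The length counted, and with wider windows the number of libraries, depended on the window. The main Ccnd2 peak lay inside the gene, and its right edge fell 60 bp short of the window in replicate 2 of 4_1 and 22 bp short in replicate 1 of 4_1, but 100 and 41 bp within it in the libraries of 6_1. In null libraries the same edge fell 681 bp short in 4_C2 replicate 1 and 895 and 312 bp short in 6_C4, while replicate 2 of 4_C2 had no peak there. With windows of 2000 bp Ccnd2 was marked in 4 fx/fx and 3 null libraries, at a mean of 3629 and 1227 bp.

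Measured over the whole gene and 5 kb either side, a window added after the data were seen, Ccnd2 was covered over 3335 and 3180 bp in 4_1, 5769 and 4384 bp in 6_1, 1660 and 963 bp in 4_C2, and 1344 and 1905 bp in 6_C4. All 4 null libraries lay below all 4 fx/fx libraries, with 1468 ± 408 bp against 4167 ± 1194 bp (SD, n = 4 per group), a mean 2.84-fold shorter. Of 15019 genes with a peak in this wider window, 1.81% had all null below all fx/fx libraries and 0.0466% the reverse. Since this contrast was used in choosing Ccnd2, nothing is read from that share. Without replicate 2 of 4_C2, null libraries ran from 1344 to 1905 bp and the mean was 2.55-fold shorter.

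The Ccnd2 signal fell into 3 merged regions. The inner one (chr6:127148624-127151288) was present in 4 fx/fx and 3 null libraries, at 2354 ± 230 and 1227 ± 850 bp (SD, n = 4 per group). The one across the right end (chr6:127151420-127152556) was present in 3 fx/fx libraries, at 1051, 1040 and 943 bp, and in no null library. The outer one (chr6:127153935-127155998) was present in 3 fx/fx libraries and in replicate 2 of 4_C2, the library that lacked the inner region.

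**Figure D2:**
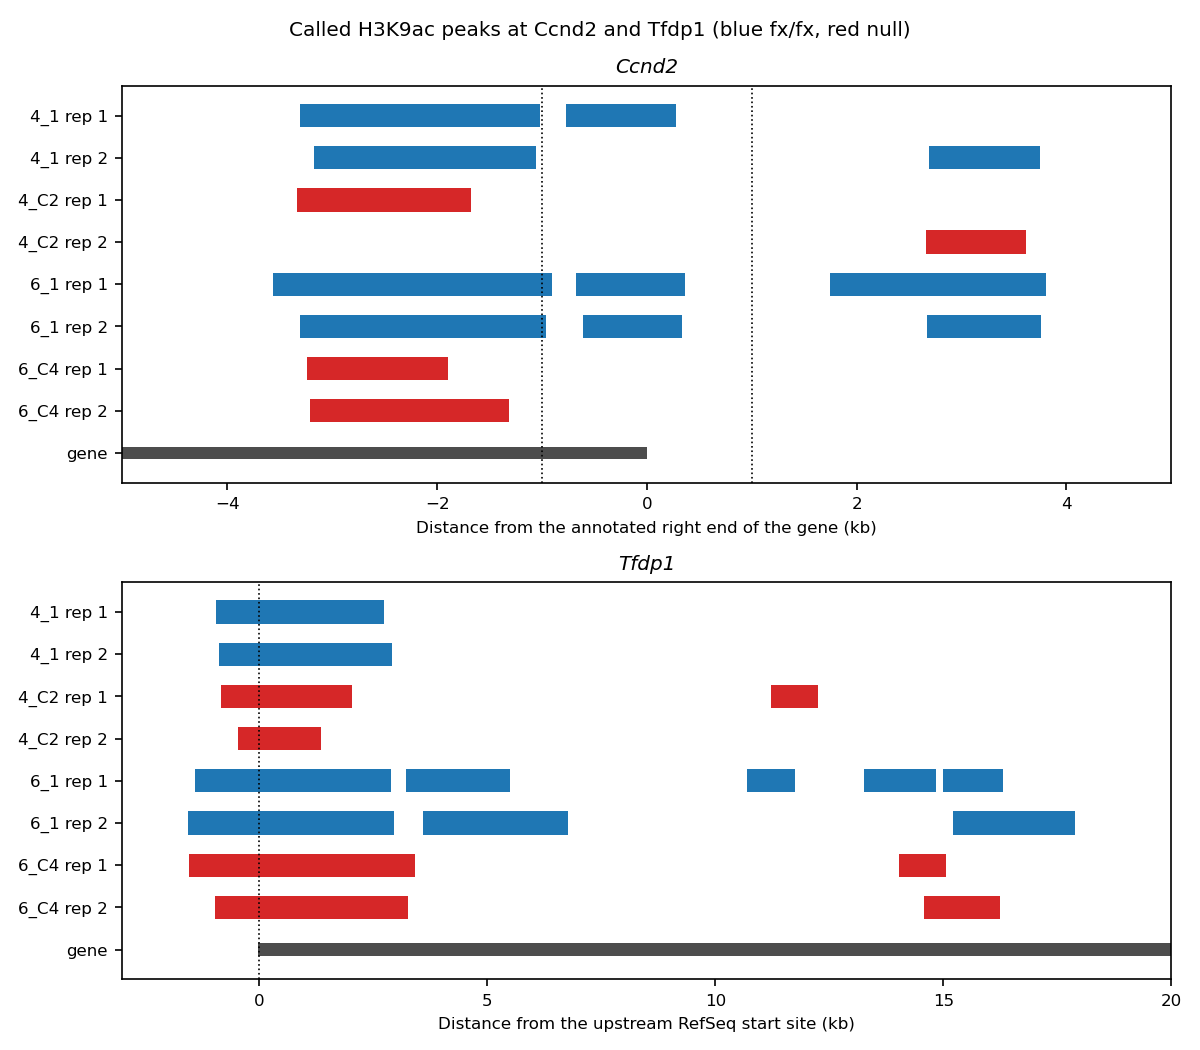
Called peaks (bars) in each of the 8 libraries by distance in kb from the right end of Ccnd2, with dotted lines at the window of 1000 bp either side, and from the upstream start of Tfdp1, dotted. At Ccnd2 the bars across the right end are in 3 fx/fx libraries and no null library, and at Tfdp1 the second bar next to the promoter peak is in the 2 libraries of 6_1.

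Ccnd3 encodes cyclin D3 (chromosome 17, 47505051 to 47599689) and has 2 RefSeq start sites, the second 88416 bp downstream of the first. Both promoters are shown, since the acetylated domains at them differed in width, with CG dinucleotides in capitals.
Ccnd3 upstream start, chr17:47504801-47505100, plus strand: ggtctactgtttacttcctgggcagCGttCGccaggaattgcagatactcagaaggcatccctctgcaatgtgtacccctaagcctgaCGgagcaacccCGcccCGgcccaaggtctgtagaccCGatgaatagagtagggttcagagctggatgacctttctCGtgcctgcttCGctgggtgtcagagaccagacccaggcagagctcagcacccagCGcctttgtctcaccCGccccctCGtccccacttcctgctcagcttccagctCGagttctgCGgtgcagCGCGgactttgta
Ccnd3 downstream start, chr17:47593217-47593516, plus strand: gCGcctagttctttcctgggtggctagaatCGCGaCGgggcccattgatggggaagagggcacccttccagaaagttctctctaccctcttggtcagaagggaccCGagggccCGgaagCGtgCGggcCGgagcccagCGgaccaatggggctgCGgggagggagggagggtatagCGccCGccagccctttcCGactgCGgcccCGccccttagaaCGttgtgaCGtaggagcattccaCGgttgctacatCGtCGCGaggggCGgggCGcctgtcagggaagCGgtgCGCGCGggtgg
The upstream promoter holds 15 CG dinucleotides and 59.3% G and C, and the downstream one 28 and 67.0%, against medians of 13 and 56.3% over 21263 promoters of protein-coding genes in the table.

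At the upstream start the Ccnd3 peak covered 1435 and 1245 bp in 4_1, 1413 and 1704 bp in 6_1, 1303 and 0 bp in 4_C2, and 1660 and 1346 bp in 6_C4. The library without it was replicate 2 of 4_C2, without which the mean difference between genotypes went from -372 to -12.9 bp, while without replicate 1 of 6_C4 it was -566.3 bp. The region at the downstream start (chr17:47592759-47597693) was present in all 8 libraries. It covered 1906 and 2332 bp in 4_1, 2785 and 2057 bp in 4_C2, 4579 and 4788 bp in 6_1, and 4087 and 3762 bp in 6_C4, so that all 4 libraries of pair 6 lay above all 4 of pair 4. The downstream domain was wider than the upstream one in each of the 7 libraries that had both. It extended a mean of 382 bp upstream and 2696 bp downstream of its start, against 699 and 744 bp at the upstream start where that peak was called. Between the starts, a region at 47521112 to 47524226 was called in 7 libraries, all but replicate 2 of 4_C2.

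**Figure D3:**
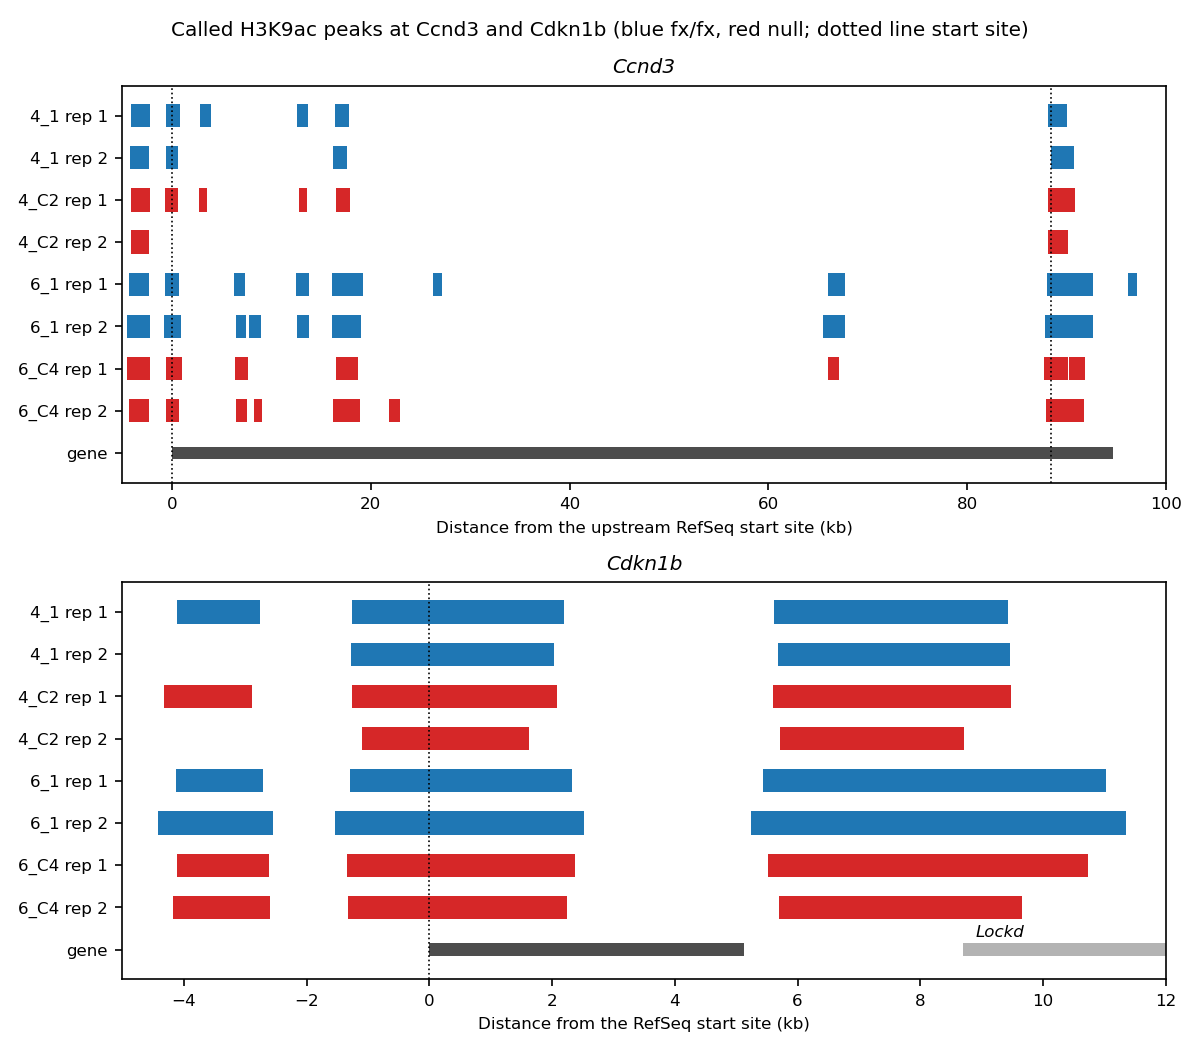
Called peaks (bars) in each of the 8 libraries by distance in kb from the start sites (dotted) of Ccnd3 and Cdkn1b, with the start of the neighbouring RNA gene Lockd in light grey. At Ccnd3 the downstream start carries the wider bar in each of the 7 libraries with a bar at both starts. At Cdkn1b 2 separate domains are called in all 8 libraries.

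Ccne1 and Ccne2 encode the E-type cyclins. Ccne1 (chromosome 7, 38097984 to 38107490, minus strand) had 1 peak across its start, at 2398 and 2426 bp in 4_1, 3073 and 2928 bp in 6_1, 2481 and 2065 bp in 4_C2, and 3066 and 2443 bp in 6_C4. The genotypes overlapped, with 2706 ± 345 bp for fx/fx against 2514 ± 413 bp for null (SD, n = 4 per group). The difference of -192.5 bp ran from -376.6 bp without replicate 1 of 6_C4 to -42.9 bp without replicate 2 of 4_C2, and was -70.3 and -118.6 bp without replicates 1 and 2 of 6_1 and -295.3 bp without replicate 1 of 4_1. The peak was nearly symmetric, reaching a mean of 1256 bp upstream and 1353 bp downstream. Over 7604 genes whose first listed start was covered in all 8 libraries, the medians were 892 bp upstream and 1466 bp downstream, and the downstream side was the longer in 82.2%.

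Ccne2 (chromosome 4, 11190433 to 11204779) was covered at its left end over 3541 and 3507 bp in 4_1, 3825 and 3723 bp in 6_1, 2980 and 2995 bp in 4_C2, and 3671 and 3895 bp in 6_C4. In pair 4 both null libraries lay below both fx/fx libraries, by a mean of -536.5 bp, and in pair 6 they overlapped, with a mean difference of 9.0 bp. Such an order in pair 4 was seen at 29.3% of genes with an end peak. Over both pairs the difference was -263.8 bp, and it was -128.7 and -133.7 bp without replicates 1 and 2 of 4_C2 and -433.7 bp without replicate 2 of 6_C4. The left end of Ccne2 overlaps the non-coding RNA gene A630034I12Rik.

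Cdkn1b encodes p27 (chromosome 6, 134920401 to 134925525, plus strand). It carried the longest covered length of the 10 genes, 8442 ± 1496 bp for fx/fx against 7349 ± 1314 bp for null (SD, n = 4 per group), in 2 domains. The promoter domain covered 3468 and 3309 bp in 4_1, 3621 and 4068 bp in 6_1, 3342 and 2730 bp in 4_C2, and 3720 and 3560 bp in 6_C4. The other domain (chr6:134925644-134931744) began just beyond the right end of Cdkn1b and reached into Lockd, a non-coding RNA gene, so that it was counted through the window. It covered 3818 and 3791 bp in 4_1, 5591 and 6101 bp in 6_1, 3880 and 2995 bp in 4_C2, and 5209 and 3959 bp in 6_C4. At the promoter domain the genotypes overlapped, and in the outer domain both null libraries of pair 6 lay below both fx/fx libraries, as in the end peaks of 39.9% of genes. The difference over both domains went from -1093 to -551.8 bp without replicate 2 of 4_C2 and to -517.3 bp without replicate 2 of 6_1.

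Cdkn2c encodes p18 (chromosome 4, 109660876 to 109666756, minus strand). Its start was covered over 2765 and 2471 bp in 4_1, 2999 and 2612 bp in 6_1, 2189 and 2631 bp in 4_C2, and 2738 and 2331 bp in 6_C4, with overlap within each pair. The genotype means were 2712 ± 226 bp for fx/fx against 2472 ± 256 bp for null (SD, n = 4 per group). The difference went from -239.5 to -145.1 bp without replicate 1 of 4_C2 and to -143.8 bp without replicate 1 of 6_1. A second listed start, 1384 bp further on, lay within the same peak in 7 of 8 libraries.

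E2f1 (chromosome 2, 154559400 to 154569892, minus strand) encodes an activating E2F and is itself an E2F target. Its covered length at both ends was 4007 and 3642 bp in 4_1, 5057 and 6857 bp in 6_1, 3290 and 3284 bp in 4_C2, and 5060 and 4692 bp in 6_C4. Replicate 2 of 6_1 was the highest, and without it the mean difference between null and fx/fx went from -809.3 to -153.8 bp, while without replicate 2 of 4_1 it was -1225.5 bp. The domain at the start (chr2:154566225-154571559) covered 2626 and 2376 bp in 4_1, 2277 and 2227 bp in 4_C2, 3421 and 5335 bp in 6_1, and 3394 and 4043 bp in 6_C4. A smaller peak beyond the other end, of 1013 to 1666 bp in all 8 libraries, lay at Necab3, whose span overlaps that of E2f1. The listed E2f1 start is 466 bp inside the gene's right end.

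E2f3 (chromosome 13, 29906575 to 29986064, minus strand) encodes another activating E2F. It was covered at its start over 4523 and 4261 bp in 4_1, 5119 and 4707 bp in 6_1, 4065 and 3879 bp in 4_C2, and 4646 and 4117 bp in 6_C4. Both null libraries lay below both fx/fx libraries in each pair, as at 13% of genes with an end peak, with 4653 ± 361 bp for fx/fx against 4177 ± 329 bp for null (SD, n = 4 per group). The domain was called as 2 peaks, split just upstream of the start, in 1 fx/fx and 3 null libraries. In those 4 libraries the peak over the start reached 41 to 83 bp upstream of it, and in the others 1191 to 1617 bp. Counting only the length inside the windows, the means were 1940 bp with Gcn5 and 1865 bp without.

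The upstream E2f3 promoter and the Tfdp1 promoter are shown because they hold matches to E2F octamers close to the start. Octamers searched on both strands were TTTCCCGC, TTTCGCGC, TTTGCCGC, TTTGGCGC, TTTCGCGG and TTTGGCGG, and matches are in capitals.
E2f3 upstream start, chr13:29986014-29986313, minus strand: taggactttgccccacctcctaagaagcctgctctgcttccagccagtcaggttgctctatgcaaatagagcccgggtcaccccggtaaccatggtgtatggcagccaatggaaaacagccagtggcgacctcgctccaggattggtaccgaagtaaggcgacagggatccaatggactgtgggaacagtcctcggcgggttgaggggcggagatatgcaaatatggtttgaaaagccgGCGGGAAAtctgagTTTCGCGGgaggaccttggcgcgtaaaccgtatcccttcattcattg
Tfdp1 upstream start, chr8:13338501-13338800, plus strand: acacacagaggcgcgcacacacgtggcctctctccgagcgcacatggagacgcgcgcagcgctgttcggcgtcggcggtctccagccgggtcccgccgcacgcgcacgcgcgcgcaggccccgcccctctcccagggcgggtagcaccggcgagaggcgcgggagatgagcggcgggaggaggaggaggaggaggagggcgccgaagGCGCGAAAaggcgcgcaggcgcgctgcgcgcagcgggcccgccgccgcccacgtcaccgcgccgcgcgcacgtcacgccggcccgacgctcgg
E2f3 has 2 matches, which begin at -11 and 3 relative to the start and do not overlap, and Tfdp1 has 1, at -43. Such an octamer is in 4 of the 11 promoters, 2 of them the overlapping ones of Tfdp1, and in 3.80% of all 21263. Among the 7 genes with promoters, 3 hold one, the third being Cdkn2c at its downstream start. The E2f1 sequence, which holds none, is counted among the 11 but lies wholly inside the annotated gene. Sequence upstream of the right end of E2f1 was not searched. The GC box GGGCGG is in 10 of the 11 promoters and in 46.2% of all, and none of its matches overlaps an octamer in these promoters. The E-box CACGTG, the core sequence bound by Myc, is in 3 of 11 and in 7.84% of all. The pentamer CCAAT is in 4 of 11 and in 38.2% of all. The 2 Tfdp1 starts are 53 bp apart and share most of their sequence.

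Tfdp1 encodes DP1, the partner of E2F factors (chromosome 8, 13338725 to 13378448, plus strand). The peak over its start covered 3699 and 3796 bp in 4_1, 4293 and 4518 bp in 6_1, 2883 and 1821 bp in 4_C2, and 4944 and 4238 bp in 6_C4. In pair 4 both null libraries lay below both fx/fx libraries, while in pair 6 the genotypes overlapped and the null mean was higher by 185.5 bp. Downstream of the start the peak reached 2747 to 2949 bp in the 4 fx/fx libraries and 1346 to 3407 bp in the 4 null libraries.

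The merged Tfdp1 region (chr8:13337183-13345532) also takes in a second peak further into the gene, of 2297 and 3191 bp, that was called in the 2 libraries of 6_1 and in no other. Over this region covered length was 3699 and 3796 bp in 4_1, 6590 and 7709 bp in 6_1, 2883 and 1821 bp in 4_C2, and 4944 and 4238 bp in 6_C4, so that null libraries lay below fx/fx libraries in both pairs. Across the pairs the genotypes overlapped, since 6_C4 lay above 4_1. On the log2 scale, with each library centred on its median region, the null minus fx/fx value was -0.54 ± 0.11 (SE), the lowest of the 8 genes measured in this way. Without replicate 2 of 4_C2 the difference in the end peak alone went from -605 to -54.8 bp, and without replicate 1 of 6_C4 to -1095.8 bp.

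Across the 10 genes the mean covered length at the ends was lower in null libraries at 10 of 10, as it was at 82.3% of genes with an end peak. Their median log2 ratio of null to fx/fx means, with 100 bp added to each mean, was -0.21, against -0.15 over 13622 genes with an end peak in any library. No gene of the 10 had all 4 null below all 4 fx/fx libraries at its ends, a pattern seen at 2.09% of genes, with the reverse at 0.044%. Within pair 4 such an order was seen at 5 of the 10 (Ccnd1, Ccne2, E2f1, E2f3 and Tfdp1), against 29.3% of genes. Within pair 6 it was seen at 4 (Ccnd1, Ccnd2, Cdkn1b and E2f3), against 39.9%, and within both at Ccnd1 and E2f3, against 13%. Since the genotype contrast was used in the choice, nothing is read from these counts. With the width of the region at the end centred on each library's median, 8 genes had a region in all 8 libraries, and 5 of 8 were below 0 with a median of -0.03. Those values other than Tfdp1 ran from -0.13 ± 0.10 (SE) at Cdkn1b to 0.02 ± 0.09 at Ccne1.

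Isolate pairs were compared over all regions. Because the genes were chosen from covered lengths in these same libraries, isolate by isolate, the pair values of the 10 genes are a description too, given with no p. limma was fitted to the centred widths of 10171 regions present in all 8 lists, with genotype as a covariate. Of these, 6.83% differed between pairs at a Benjamini-Hochberg adjusted p under 0.05, 4.32% wider and 2.52% narrower in pair 6. Of the set, 8 genes had such a region, and their values are given without calls. Tfdp1 had a log2 value of 0.70 ± 0.11 (SE) for pair 6 over pair 4, and all 4 libraries of pair 6 lay above all 4 of pair 4. E2f1 followed at 0.48 ± 0.13, or 0.26 ± 0.10 without replicate 2 of 6_1, with the same order of libraries, and Cdkn1b, measured at the domain that reaches Lockd, at 0.25 ± 0.10. The other 5 of the 8 genes lay between -0.18 (Cdkn2c) and 0.05 (Ccnd1). At the gene ends all 4 libraries of pair 6 lay above all 4 of pair 4 at 5 of the 10 genes (Ccnd1, Ccne2, Cdkn1b, E2f1 and Tfdp1), against 27.9% of genes with an end peak. Without replicate 1 of 6_1 the Tfdp1 value was 0.43 ± 0.17, and with no genotype term it was 0.70 ± 0.19 (SE). The pairs also differed in list length and in marker genes. Summed covered length of the 4 pluripotency markers was 6498 to 12755 bp in pair 4 and 19494 to 26703 bp in pair 6, that of the 3 epiblast markers 3114 to 5979 and 9401 to 14086 bp, and that of the 3 endoderm markers 0 to 3304 and 5841 to 9692 bp. For the 3 streak markers the ranges overlapped, at 0 to 4701 and 3013 to 5429 bp, as they did for Sox1 with Pax6, at 0 to 6482 and 5421 to 8422 bp. The part of list length and of cell composition in the pair differences was not tested. Before centring, the median region was wider in pair 6 by a log2 value of 0.25, and Tfdp1, E2f1 and Cdkn1b were at 0.96, 0.75 and 0.52.

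**Figure D4:**
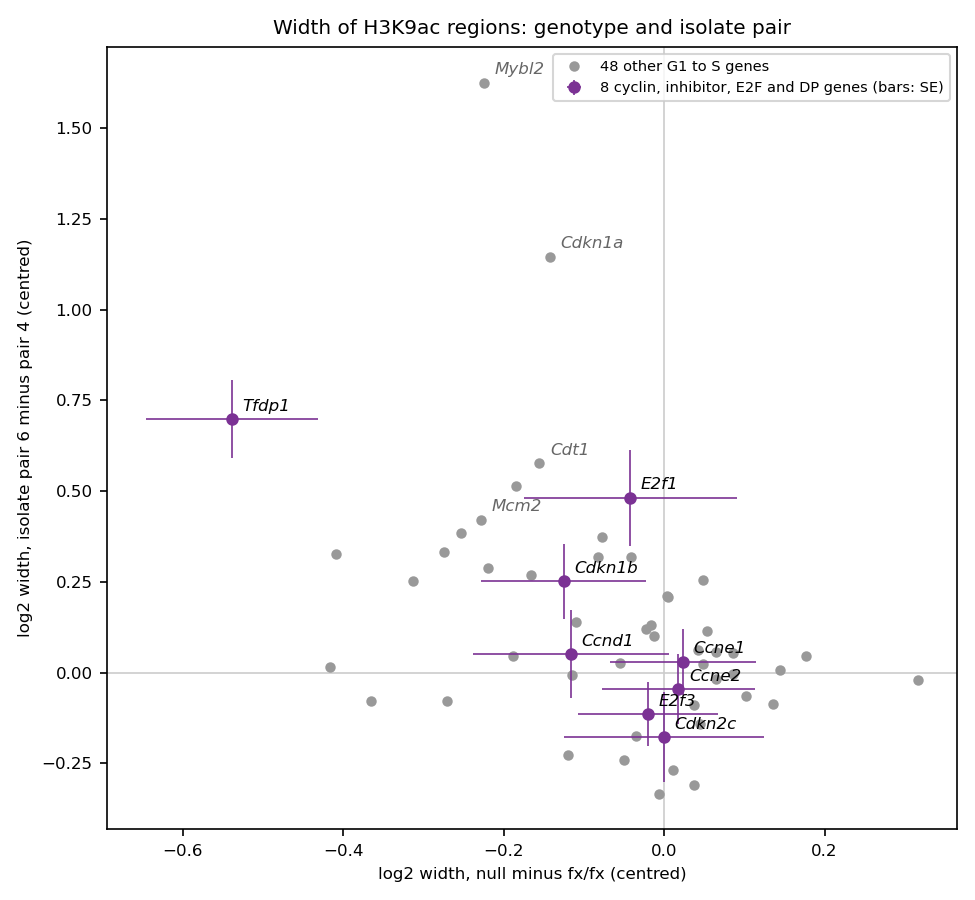
Centred log2 differences in region width, null minus fx/fx on the horizontal and pair 6 minus pair 4 on the vertical axis, for 8 genes of the set (purple, bars SE) and 48 other G1 to S genes (grey). Tfdp1 is farthest to the left, at -0.54, and of the purple points highest at 0.70.

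Other genes of G1 to S control were read from a list of 53, all found in the gene table. Of these, 46 had an end peak in all 8 libraries, 5 in some, and 2 in none, namely Skp2 (a substrate receptor of the SCF ubiquitin ligase) and Ccna1 (a germ cell cyclin A). For genotype, limma tested the regions of 48 and called 0, as it called 0 of all 10171 regions (0%). At an unadjusted p under 0.05 there were 6 of the 48, and 327 narrower and 378 wider regions overall. The median log2 value of the 48 was -0.03, with 29 below 0, against 0.02 over all regions.

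By role, all 7 genes of the CDK group (Cdk2, Cdk4, Cdk6, the phosphatase gene Cdc25a, and Cdk7, Ccnh and Mnat1 of the CDK-activating kinase) and all 7 other E2F and DP genes were marked in every library. Their median log2 values for genotype were 0.05 with 1 of 7 below 0, and -0.08 with 7 of 7 below 0. Genes of S phase that E2F drives had a median of -0.13 with 14 of 18 below 0. Genes of the MuvB core and B-Myb had -0.002 over 6, those of the SCF ligase 0.09 over 4, the other kinase inhibitors -0.18 over 4 and the pocket proteins 0.02 over 2. Over all 48 genes 29 were below 0 and none was called, and the groups were not tested as sets.

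Libraries with an end peak differed in number between genotypes at 4 of the 53 genes, each with more in fx/fx. The share of all genes under this rule was not computed, so nothing is read from the count. In pair 4, 250 of all genes were marked in both fx/fx and no null library and 51 the reverse, and in pair 6, 154 and 39. Pola1, the catalytic subunit of DNA polymerase alpha, was marked in 4 fx/fx libraries but 2 of the null group, at 2271 and 1781 bp in 4_1, 0 bp in both libraries of 4_C2, 2555 and 2793 bp in 6_1, and 2084 and 2423 bp in 6_C4. Both libraries without it were those of 4_C2, and whether the pairs differ was not tested. Rbl2, the pocket protein p130, had 4 and 3, Cdkn1c, the inhibitor p57, 2 and 1, and Orc1, of the origin recognition complex, 1 and 0. At Orc1 only the peak of replicate 2 of 6_1, of 5214 bp, reached the window. The region it belongs to (chr4:108576512-108581725) was called in all 8 libraries, with a genotype log2 value of -0.02 ± 0.12 (SE). All 4 null lay below all 4 fx/fx libraries at 3 of the 53 genes, named here after their values were seen, against 2.09% of genes with an end peak. Ccna2 (cyclin A2) was at 3112 ± 274 bp for fx/fx against 2367 ± 387 bp for null, Mcm3, of the replicative helicase, at 3310 ± 436 and 2369 ± 502 bp, and Ccnh (cyclin H) at 1636 ± 56.1 and 1440 ± 91.3 bp (SD, n = 4 per group). Their limma adjusted p for centred width were 0.714, 0.714 and 0.904.

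Between the isolate pairs limma called 4 of the 48 genes, all wider in pair 6 and named after their values were seen. Of all regions 4.32% were called wider and 2.52% narrower in pair 6, and the shares were not compared by a test. The markers that differed between the pairs differed in the same direction. These 4 genes were Mybl2, which encodes B-Myb (log2 1.63 ± 0.14, SE, limma adjusted p = 0.000291), Cdkn1a, which encodes p21 (1.15 ± 0.09, limma adjusted p = 0.000256), the replication licensing gene Cdt1 (0.58 ± 0.11, limma adjusted p = 0.0153) and the helicase gene Mcm2 (0.42 ± 0.10, limma adjusted p = 0.0339). At Cdkn1a the region tested was longer than the windows, and an end peak was called in the 4 libraries of pair 6, at 3966, 3642, 2067 and 1809 bp, and in none of pair 4.

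Genes whose end peaks varied most like those of Ccnd2 and Tfdp1 were sought among 12349 genes with an end peak in at least 4 libraries, by Pearson's r over the 8 libraries on log2 of covered length plus 100 bp, centred on each library's median. For Ccnd2 they were Ap2a1 (r = 0.986), Zfp266 (0.964) and Paqr7 (0.958), and for Tfdp1 they were Use1 (0.979), Gnpda1 (0.975) and Etv5 (0.971). Ccnd2 itself had an end peak in 3 fx/fx libraries and no null library. Its r values rest largely on those 3 against a floor of 100 bp. The points share libraries and their unknown depths, and with 12349 genes compared over 8 points high values of r are given as a description. Ap2a1, an adaptor protein subunit, was covered over 4361 and 3094 bp in 4_1, 5923 and 6285 bp in 6_1, 3230 and 2511 bp in 4_C2, and 3233 and 3405 bp in 6_C4. It was marked in all 8 libraries, unlike Ccnd2. Etv5, a transcription factor gene of the FGF pathway, was at 2760 and 3146 bp in 4_1, 4194 and 3947 bp in 6_1, 2137 and 958 bp in 4_C2, and 4670 and 3998 bp in 6_C4, with the low value in the shortest list as at Tfdp1.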

How the data were processed

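Of 24 samples in the series the 8 for H3K9ac were analysed, and the 16 for total H3 or input are not used here. The authors deposited the start and end of each peak for every library, with no count, height or score. Bowtie 1.1.2, MACS 1.4.2 and mm10 are named per the submitters' processing notes, and the sources used here do not give the threshold, control library or filters. Libraries were single reads of 50 bp per the labels' protocols.

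Starts were converted to count from 1. Peaks of the 8 lists that shared 1 bp or more were joined into regions, and a gene's region was that at its ends with the largest mean covered length. log2 covered length was computed here, centred on each library's median and fitted with limma 3.58.1 in R 4.3.3 over 10171 regions, with genotype and isolate pair as terms and Benjamini-Hochberg adjustment at 0.05. Other steps used Python 3.11.15, pandas 2.3.3, numpy 2.4.6 and matplotlib 3.10.9.

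The genes and lists were chosen with earlier results of these data known. The named genes were the 10 of the set, other G1 to S genes called for genotype or differing in libraries with a peak (up to 8 in each direction), Kat2a, Myc, and 3 genes most like Ccnd2 and Tfdp1. Genes without an end peak, with no overlap between genotypes, or called between pairs were named after their values were seen. The labels do not say that the libraries of an isolate came from separate cultures, so p-values measure the spread between libraries, which may be technical. Alternatives were other windows, no centring, a pseudocount of 100 bp for regions in 4 or more lists, merging across 500 bp, equal-length lists, a replicate block, fewer terms and leaving out each library.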

Additional observations from a re-analysis of the deposited data

Results flagged for a closer look

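In 40 groups of 4 libraries (10 genes, 2 genotypes and 2 measures of covered length), 2 had a library far from the others by Dixon's criterion, which chance meets in about 1 of 20 groups. Both were replicate 2 of 4_C2 at Ccnd1. Its length at the gene ends was 2749 bp against 5932 to 6406 bp in the other null libraries. Over the gene and 5 kb either side it was 3486 bp against the same range. This library has the shortest list, and the part of list length in the value was not tested. No gene of the set had null libraries all below fx/fx in one pair and all above in the other.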

How the results depend on the processing

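The mean covered length was lower in null libraries at all 10 genes under each of 13 alternatives, the added window of 5 kb among them. In the main setting it was lower at 82.3% of genes with an end peak. None of these lengths was centred, and with centred region widths 5 of 8 genes were below 0. Since the genotype contrast was used in the choice, nothing is read from this count. Of 130 recomputed differences 6 moved by more than the mean of the SDs within the 2 genotypes, and 0 changed sign. Each SD is over 4 libraries of 2 isolates, so it includes the difference between isolate pairs and is a loose measure. The sizes moved without 1 library, and the differences that changed most are given at each gene but Ccnd2 and E2f3. At those they ran from -2684 to -1449 bp and from -632.2 to -320.3 bp. Counting only length inside the windows, the differences at the 8 genes other than Ccnd2 and Ccnd3 were from -1.0 bp (Ccne1) to -144 bp (Tfdp1). For genotype, limma called 17 regions, all narrower, with a pseudocount over regions in 4 or more lists, and 0 to 1 without any one library, the 1 being without replicate 2 of 4_C2 or either replicate of 6_C4. It called none of the other G1 to S genes under any alternative. Between isolate pairs the 695 called regions became 2746 with uncentred widths, 1428 with a pseudocount over regions in 4 or more lists, and 293 to 507 without any one library. Of the 10 genes, 3 were then called with uncentred widths, 0 with no genotype term and 1 without any one library. That gene was E2f1 in place of Tfdp1 without replicate 1 of 6_1.

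With a replicate block limma called 0 regions for genotype and 629 between pairs. Same-numbered libraries of 2 isolates correlated in their deviations at -0.026 to 0.109, so they were not treated as paired.

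With equal-length lists by width, genes marked in null alone numbered 103 in pair 4 against 51, and 144 in pair 6 against 39, and those marked in fx/fx alone in pair 6 numbered 98 against 154. Without any one library, genes marked in fx/fx alone ran from 329 to 1050 in pair 4 and 287 to 445 in pair 6. Those marked in null alone ran from 78 to 330 and from 97 to 156. These counts could not fall below those with all libraries, since the rule is easier to meet with 1 library fewer. Ccnd2 remained among the genes marked in fx/fx alone in pair 6 with 500 bp windows and equal-length lists, but not with 2000 bp windows. Leaving out a library could not have removed it, and the choice of Ccnd2 used these values. In pair 4, under this easier rule, Ccnd2 was marked in fx/fx alone without replicate 2 of 4_1, and Ccnd3 without replicate 1 of 4_C2. Depth is unknown, so an uncalled peak does not show that the mark was absent.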
